A study of Mus musculus with 5 samples.

Results

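Memory-type CD4 T cells were taken from the blood of mice in a study of a diet-driven heart failure model (preserved ejection fraction), and numbered 889 among 62,028 kept cell barcodes. A cell was counted where it had at least 200 detected genes, a mitochondrial share below 10%, a Cd4 UMI (unique molecular identifier, 1 captured RNA molecule) and a Cd3e, Cd3d or Trac UMI. It had no UMI of Cd8a, Cd8b1, Cd79a, Lyz2 or Foxp3, and at least 3 of the 7 genes Icos, Maf, Itgb1, S100a4, Cxcr3, Tbc1d4 and Ctla4 were detected. The same gate without the count of 7 genes held 3405 cells, so 2516 other CD4-gated cells had 0 to 2 of the 7 genes. A further 184 cells passed the lineage gate with a Foxp3 UMI. The cells were thus chosen by the raw counts of these 16 genes, which are given below as a description only. They are called memory-type below (memory or activated CD4 in the figures).

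All libraries were 10x Genomics 3′ libraries of blood mononuclear cells that had been isolated on a density gradient, cleared of red cells by lysis, frozen and thawed. The NO2-OA group was 1 library of C57BL/6N mice kept for 15 weeks on a high-fat diet (HFD) and L-NAME, an inhibitor of endothelial nitric oxide synthase. During the last 4 of these weeks they also received nitro-oleic acid (NO2-OA), a fatty acid with an electrophilic nitro group. The HFD + L-NAME group was 2 libraries of the same strain on the regimen alone, and the chow group was 2 libraries of control mice on regular chow. Ages are not given in the labels. The labels do not state that each library came from a separate animal, and the p-values therefore refer to the spread between libraries, part of which may be technical. The file names put replicate 1 of both groups and the NO2-OA library in one set and replicate 2 in another, and the set and the replicate number cannot be told apart.

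A CD4 T cell that has met its antigen leaves the naive state, loses the lymph-node receptor CCR7, gains adhesion molecules such as CD44 and beta-1 integrin, and can persist as a memory cell. Such cells adopt helper programmes: type 1 cells use T-bet (Tbx21) and interferon gamma, type 2 cells GATA3, type 17 cells interleukin-17, and follicular helper cells CXCR5 and BCL6. ICOS and CTLA-4 are co-receptors of activated T cells, c-MAF is a transcription factor of helper cells that make interleukins, and CXCR3 guides type 1 cells to inflamed tissue. TBC1D4 controls glucose transporter traffic, and S100a4 encodes a calcium-binding protein of memory cells.

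The NO2-OA library held 388 of the cells, HFD + L-NAME held 130 and 44, and chow held 186 and 141. Their median depth lay between 6554 and 8769 UMIs per cell and that of the other CD4-gated cells between 5228 and 7573, and in every library the memory-type cells were the deeper set. HFD + L-NAME 2 had only 114 CD4-gated cells, which makes its values the least precise. Predicted doublets, 2 cells under 1 barcode by the scrublet score, made up 13.7% of the memory-type cells in the NO2-OA library, 0.769% and 0% in HFD + L-NAME and 5.38% and 2.13% in chow. Libraries shared 28 to 77 barcode sequences per pair.

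Among the 889 cells, Itgb1 was detected in 79.8%, Icos in 76.9%, Tbc1d4 in 75.6%, Ctla4 in 67.9%, Maf in 64.6%, S100a4 in 40.8% and Cxcr3 in 15.6%. The most frequent pattern, all of the 7 genes except Cxcr3, was carried by 77 cells (8.66%), and 35 cells carried all 7. Of the Cxcr3-positive cells 92.1% also had Itgb1, beside 79.8% of all 889 cells. The rule itself asks for at least 3 of the 7 genes in a cell, so such shared detection is a description only. Of the other CD4-gated cells, 33.7% had an Icos UMI and 17.9% a Tbc1d4 UMI. In B-gated cells, which should lack both, the shares were 0.202% and 0.728%.

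Levels of genes outside the rule differed stepwise with the number of the 7 genes detected, given as CPM, a gene's UMIs per 1,000,000 UMIs, of the cells pooled over libraries. Lef1, a transcription factor of naive T cells, stood at 1426, 1460 and 1349 CPM in cells with 0, 1 and 2 of the genes. It stood at 874 CPM with 3, 374 with 4, and between 233 and 261 CPM with 5 to 7. S100a6, a calcium-binding protein gene, ran the other way, with 1.85, 6.78 and 10.3 CPM at 0 to 2 genes, 128 at 3, 370 at 4 and 1122 at 7. Just inside the threshold, at 3 genes, Cd44 was at 251 CPM and Ccl5, a T-cell chemokine, at 619, against 87.6 and 180 CPM just outside it at 2. Cells just inside the threshold thus had Lef1 and S100a6 levels between those of cells with fewer and with more of the genes, and they were 333 of the 889.

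**Figure D1:**
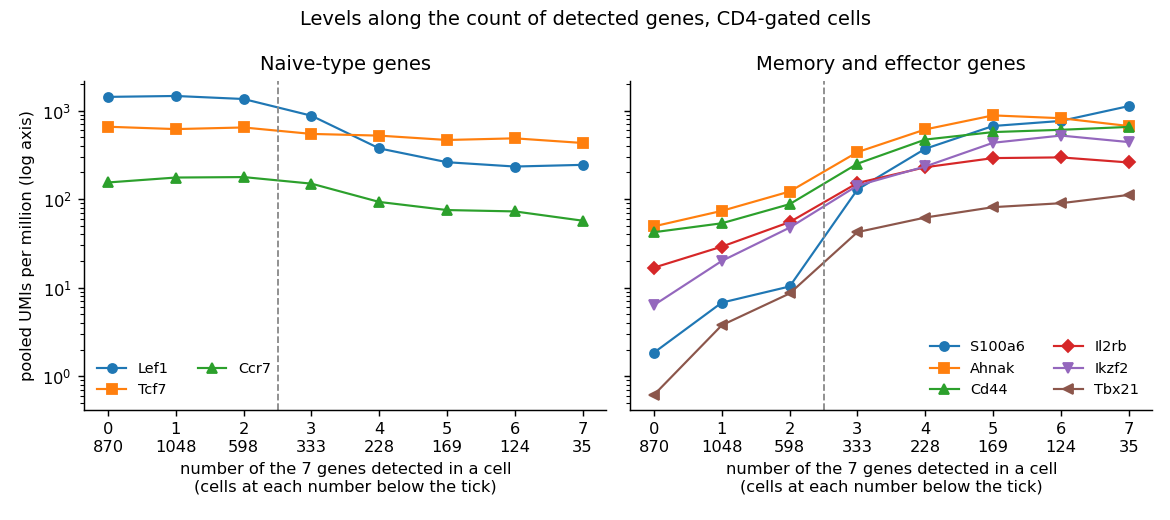
Pooled level of genes outside the rule (CPM, log axis) against the number of the 7 rule genes detected per CD4-gated cell, with the number of cells under each tick. The dashed line marks the threshold; Lef1 lies between 1349 and 1460 CPM up to 2 genes and between 233 and 261 CPM from 5 genes on, while S100a6 reaches 1122 CPM.

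The share of CD4-gated cells that were memory-type did not separate the groups. It was 31.1% in the NO2-OA library (exact 95% binomial interval 28.6% to 33.8%), 22.6% (19.3% to 26.3%) and 38.6% (29.6% to 48.2%) in the HFD + L-NAME libraries, and 19.96% (17.4% to 22.7%) and 26.2% (22.5% to 30.1%) in the chow libraries. HFD + L-NAME averaged 30.6 ± 11.3% and chow 23.1 ± 4.42% (SD, n = 2 each), a difference of 7.52 points (exact two-sided permutation p = 0.667, where 2 against 2 cannot go below 0.33). The groups overlapped, and with HFD + L-NAME 2 left out the difference was −0.474 points. Within the first set of libraries the difference was 2.65 points and within the second 12.4 points.

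Detecting 3 genes depends on depth, so each cell was also thinned to 2000 UMIs and gated again, leaving out shallower barcodes. This kept 13,941 of 14,484 barcodes in NO2-OA, 11,698 of 11,917 and 6028 of 7687 in HFD + L-NAME and 16,821 of 17,255 and 10,267 of 10,685 in chow. The share was then 19.9% in the NO2-OA library, 15.02% and 28.4% in HFD + L-NAME and 10.1% and 14.4% in chow (exact two-sided permutation p = 0.333, the smallest possible). Both HFD + L-NAME values lay above both chow values there, although the intervals of HFD + L-NAME 1 and chow 2 overlapped (10.998% to 19.8% and 10.8% to 18.6%). Of all kept barcodes, the cells made up 2.68% in the NO2-OA library, 1.09% and 0.572% in HFD + L-NAME and 1.08% and 1.32% in chow (difference −0.367 points, exact permutation p = 0.667; 0.0074 points when thinned). A blood share cannot tell fewer cells of one kind from more of another.

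**Figure D2:**
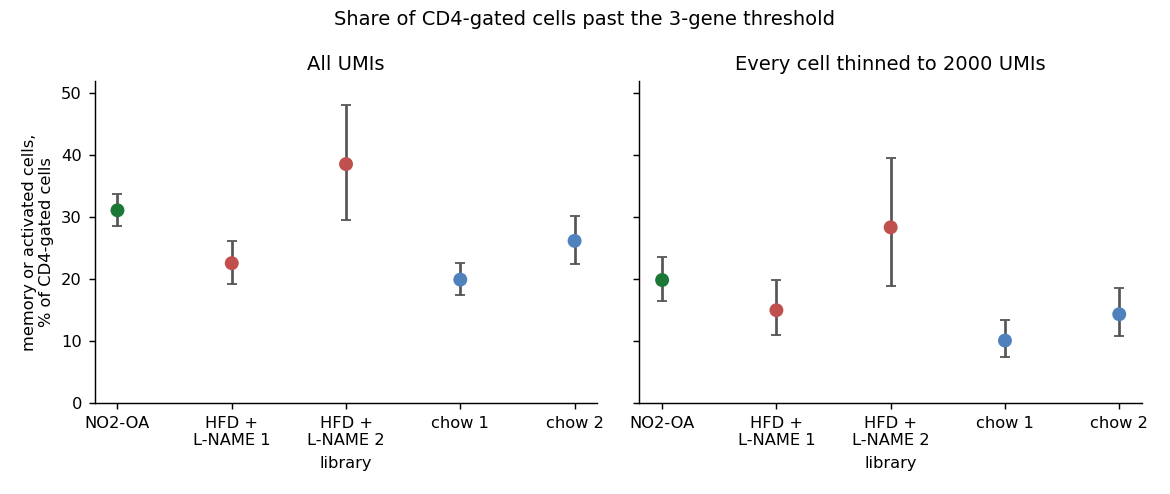
Memory-type cells as a percentage of CD4-gated cells in each library, from all UMIs (left) and after thinning every cell to 2000 UMIs (right); points are libraries and bars exact 95% binomial intervals, which cover counting error only. HFD + L-NAME 2 is highest in both panels, and HFD + L-NAME 1 lies within the chow range from all UMIs.

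Against the other CD4-gated cells of the same library, memory-type cells had less RNA of naive-state genes and more of memory, tissue-homing and effector genes, among genes that the rule did not use. Counts were summed per library and set and tested with edgeR's quasi-likelihood test with the library as a block (n = 5 pairs). Of 9693 genes tested, 1418 were higher and 1390 lower at a false discovery rate of 0.05, 29.0% of all genes tested (14.6% higher and 14.3% lower). The naive-state genes fell together: 17 of 20 tested were lower and 0 higher, with a median log2 fold change of −0.85, where the median of all genes tested was −0.02. Memory and tissue-homing genes rose, with 19 of 22 tested higher (of 25 listed), 0 lower and a median of 2.55. A gene could pass the low-count filter through the memory-type cells alone, and the direction of such a gene is a description only. Without the NO2-OA library 961 genes were higher and 862 lower, without barcodes carrying platelet transcripts 894 and 891, and with every cell thinned to 2000 UMIs 366 and 365 of 2895 tested. These lists were assembled with earlier results of the data known, and Cd44, Ccr7 and the like are part of the classical definition of the naive and memory states.

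S100a6 stood at 446 CPM in memory-type cells of the NO2-OA library, 556 and 429 CPM in those of HFD + L-NAME and 286 and 581 CPM in those of chow. In other CD4-gated cells it was at 7.23 CPM in NO2-OA, 6.43 and 5.18 in HFD + L-NAME and 3.11 and 8.61 in chow. The level was higher in memory-type cells of all 5 libraries (log2 fold change 6.11 ± 0.12, SE; edgeR adjusted p = 5.19e-20). S100a11, another calcium-binding protein gene, was also higher (3.15 ± 0.10), as were Ahnak, a very large scaffold protein gene (3.02 ± 0.13), and Emp1, an epithelial membrane protein gene (3.41 ± 0.14). Nebl, which encodes the actin-binding protein nebulette, had 4.28 ± 0.15, and Niban1, a stress-responsive gene, 3.46 ± 0.15. Transcription factors of effector and tissue-resident T cells rose, Runx2 by 3.24 ± 0.14 and Bhlhe40 by 3.25 ± 0.14. Rab8b, a vesicle-traffic GTPase gene (2.15 ± 0.10), Atxn1 (1.92 ± 0.09), and Lpxn, a paxillin-family adaptor gene (2.502 ± 0.11), completed the 10 higher genes with the smallest p.

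Lef1 had 359 CPM in memory-type cells of NO2-OA, 451 and 605 in HFD + L-NAME and 709.9 and 596 in chow, against 1200 CPM in other CD4-gated cells of NO2-OA, 1197 and 1766 in HFD + L-NAME and 1693 and 1581 in chow. It was lower in memory-type cells of all 5 libraries (log2 fold change −1.54 ± 0.07; edgeR adjusted p = 4.39e-13). Satb1, a chromatin organiser of T cells, was lower by −1.50 ± 0.07 on the log2 scale, and the quiescence factors Bach2 and Foxp1 by −1.11 ± 0.07 and −0.92 ± 0.07. Txnip, which restrains glucose uptake, had −1.27 ± 0.08, and Igfbp4, a marker of naive CD4 cells in the mouse, −2.002 ± 0.12. The sialyltransferase gene St8sia6 (−1.31 ± 0.09), Slc49a4 (−1.36 ± 0.09), Tex14 (−1.52 ± 0.11) and Rapgef4 (−1.32 ± 0.10) were the other lower genes with the smallest p. Of the classical markers, Cd44 was higher by 2.92 ± 0.24 and detected in 70.2% of memory-type and 19.0% of other CD4-gated cells. Ccr7 was lower (−0.78 ± 0.09) but still detected in 37.1% of memory-type cells, against 51.4% of the others.

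**Figure D3:**
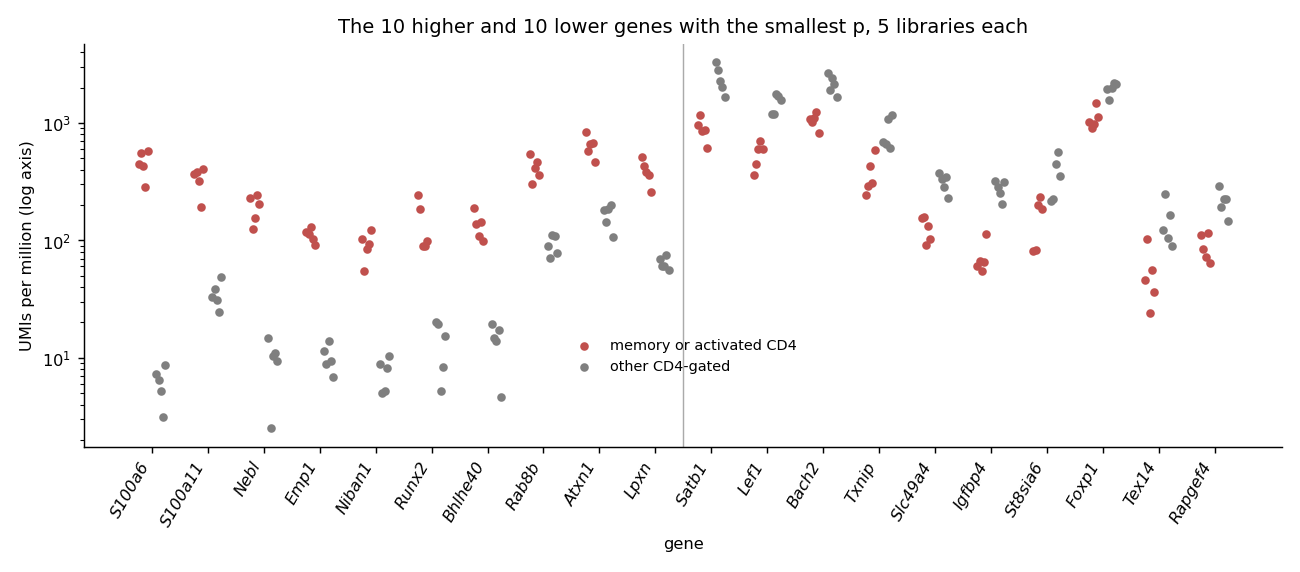
Level of 20 genes (CPM, log axis) in memory-type cells (red) and other CD4-gated cells (grey); each point is 1 of 5 libraries, in the order NO2-OA, HFD + L-NAME 1 and 2, chow 1 and 2 within each cloud. The 10 genes left of the line are higher and the 10 right of it lower in memory-type cells, without overlap within any library.

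Activation and checkpoint genes had 12 of 17 tested higher and 0 lower (of 19 listed, median 0.82), where 14.6% of all genes tested were higher and 14.3% lower. Tigit, an inhibitory receptor, had a log2 fold change of 2.64 ± 0.26, the calcium-responsive factor Nfatc1 1.01 ± 0.11, and the co-stimulatory receptor Cd28 0.82 ± 0.09. Immediate-early genes split: Nr4a2 and Nr4a3, nuclear receptors induced by T-cell receptor signals, rose by 1.45 ± 0.12 and 0.64 ± 0.09 and the AP-1 gene Junb by 0.60 ± 0.06, while Jun had −0.87 ± 0.09. In that list 8 of 15 were higher and 3 lower. Mki67, a marker of dividing cells, was detected in 6.97% of memory-type and 1.03% of other CD4-gated cells (log2 fold change 3.12 ± 0.41), and 3 of 6 tested cycle genes were higher, Top2a (2.07 ± 0.26) and Pcna (0.29 ± 0.09) included. Genes scarce in the other CD4-gated cells, such as Mki67, could pass the low-count filter through the memory-type cells alone. Their direction is a description only, and the count of cycle genes includes them. Of 26 interferon-stimulated genes tested 8 were lower and 1 higher (median −0.57), a share called in either direction that is near the 29.0% of all genes. Ifi213, Gbp4 and Ifi47 had −0.85 ± 0.12, −1.02 ± 0.15 and −0.80 ± 0.12, and the exception Ifi27l2a had 1.57 ± 0.09.

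Genes of several helper programmes were higher in the memory-type cells. Type 1 and cytotoxic genes had 11 of 16 tested higher and 1 lower (of 22 listed, median 1.58), where 14.6% of all genes tested were higher and 14.3% lower. Genes scarce in the other CD4-gated cells, such as Tbx21, Ifng, Il1rl1 and Areg, passed the low-count filter through the memory-type cells. The direction of such genes, here and in the type 2, follicular and regulatory lists below, is a description only, and the counts of these lists can include them. Tbx21 was at 74.9 CPM in memory-type cells of NO2-OA, 76.2 and 98.8 in HFD + L-NAME and 51.0 and 40.3 in chow. In other CD4-gated cells it was at 5.33 in NO2-OA, 2.15 and 1.73 in HFD + L-NAME and 6.23 and 0.718 in chow (log2 fold change 3.96 ± 0.26; edgeR adjusted p = 1.53e-09). It was detected in 21.0% of memory-type cells, 1.03% of other CD4-gated cells and 0.740% of B-gated cells. Ifng, the signature cytokine gene of type 1 cells, was detected in 19.5%, 0.835% and 0.445% of the same sets (4.77 ± 0.26). Nkg7, a granule protein gene, and Hopx, a transcriptional cofactor of type 1 memory cells, rose by 3.26 ± 0.18 and 2.92 ± 0.18. Ccl5 was concentrated: 153 cells (17.2%) held all 4134 of its UMIs, 84 of them in the NO2-OA library, 28 in HFD + L-NAME and 41 in chow.

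Of type 2 genes, Gata3 was higher by 0.72 ± 0.11 and detected in 44.99% of memory-type and 25.5% of other CD4-gated cells, while its target cytokines were rarely detected: Il4 had a UMI in 10 of 889 cells and Il5 and Il13 in 2 each. Il1rl1, the interleukin-33 receptor, and Areg, the growth factor amphiregulin, had log2 fold changes of 5.62 ± 0.41 and 5.00 ± 0.50. Both were concentrated: 32 memory-type cells held 196 UMIs of Il1rl1, 48 of them in 1 chow 2 cell, and 49 cells held 162 UMIs of Areg, 67 of them in 1 chow 2 cell. Il4ra, the interleukin-4 receptor, was lower (−1.20 ± 0.15). Of type 17 genes, 3 of 10 listed passed the low-count filter, which a gene could pass through the memory-type cells alone, so their direction is a description only: Ahr, a ligand-activated transcription factor (2.70 ± 0.20), Tmem176a (2.84 ± 0.48) and Il1r1 (2.77 ± 0.47). Il17a, the signature cytokine gene of these cells, was found in 6 memory-type cells and in none of 2516 others or of 17,310 B-gated cells. A count of 0 among the others allows up to 0.119% of cells with a UMI, and sets no limit on cells that express the gene without one.

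Follicular helper genes had 5 of 8 tested higher and 1 lower (median 0.64), where 14.6% of all genes tested were higher and 14.3% lower. Cxcr5 was higher (1.32 ± 0.18) and detected in 19.0% of memory-type cells and 6.12% of the others. B-gated cells, which use this receptor, had it in 50.7%. Slamf6 and its adaptor Sh2d1a, both needed for T-cell help to B cells, had 0.66 ± 0.09 and 0.62 ± 0.11, and the ATP receptor gene P2rx7 2.33 ± 0.30. Bcl6, the defining factor of this lineage, did not pass (−0.14 ± 0.12; edgeR adjusted p = 0.403). It had a UMI in 31.7% of memory-type, 27.9% of other CD4-gated and 24.2% of B-gated cells. Il21, the follicular helper cytokine, was found in 19 memory-type cells (2.14%) and 2 of the others.

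Although the rule required Foxp3 at 0, several genes of regulatory T cells were higher than in the other CD4-gated cells. Of 6 tested 4 were higher and 1 lower (of 10 listed, median 2.10), where 14.6% of all genes tested were higher and 14.3% lower. Ikzf2, which encodes Helios, a factor of most regulatory T cells, was at 304 CPM in memory-type cells of NO2-OA, 427 and 294 in HFD + L-NAME and 220 and 276 in chow. In other CD4-gated cells it was at 17.7 CPM in NO2-OA, 20.02 and 5.18 in HFD + L-NAME and 24.9 and 36.6 in chow (log2 fold change 3.64 ± 0.29; edgeR adjusted p = 0.00015). It was detected in 37.7% of memory-type cells, 4.05% of the others, 0.266% of B-gated cells and 77.7% of Foxp3 cells. Nrp1 (neuropilin-1) rose by 3.54 ± 0.23, the actin-capping gene Capg by 1.96 ± 0.20 and the anti-inflammatory cytokine gene Il10 by 2.24 ± 0.36. Il2ra, the high-affinity interleukin-2 receptor chain, did not pass (0.94 ± 0.36; edgeR adjusted p = 0.0657). Whether a Foxp3 transcript was missed in part of these cells was not tested.

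**Figure D4:**
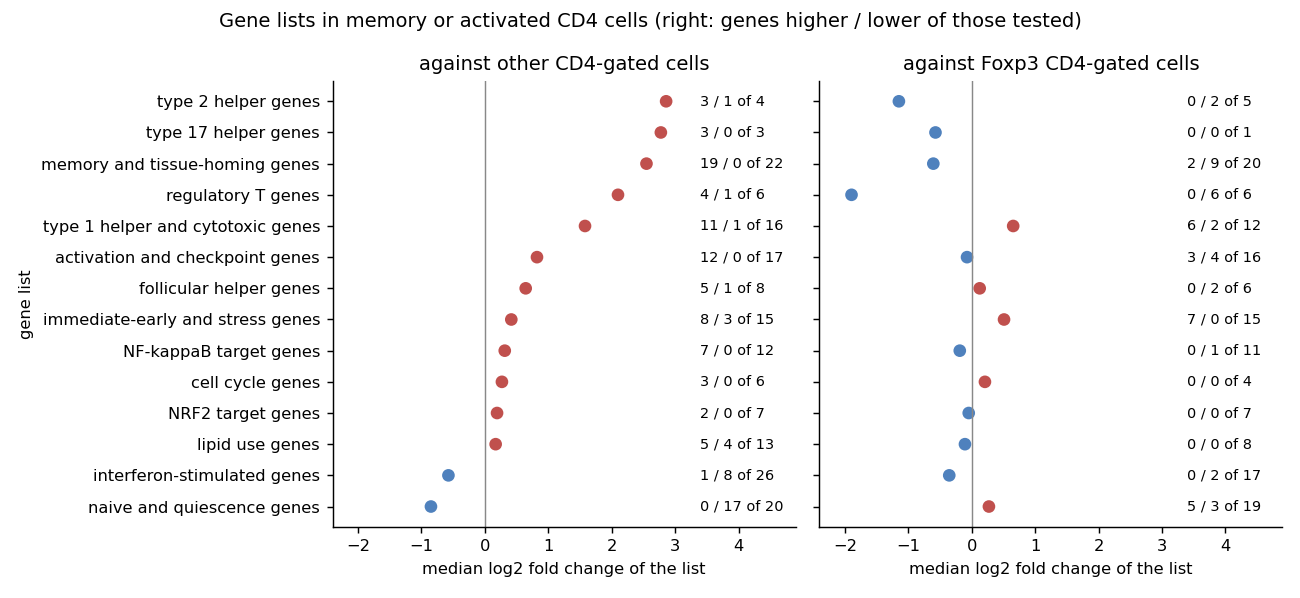
Median log2 fold change of 14 gene lists in memory-type cells against other CD4-gated cells (left) and against Foxp3 cells (right); the numbers give genes higher / lower of those tested at a false discovery rate of 0.05. Memory, helper and regulatory lists lie right of 0 on the left panel, and the regulatory list lies at −1.90 on the right panel.

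Foxp3 cells of the same lineage gate, 184 in all, carry the master factor of regulatory T cells. They were not held to 3 of the 7 genes, so they differ from memory-type cells in that selection as well as in Foxp3. Memory-type cells differed from them in 188 higher and 232 lower genes of 5865 tested, 7.16% in all, 3.21% higher and 3.96% lower (edgeR, library as block, n = 5 pairs). Without the NO2-OA library the numbers were 99 and 133, with at least 2 of the 7 genes required 334 and 401, and without platelet-positive barcodes 95 and 109. All 6 regulatory T genes tested were lower in memory-type cells (of 10 listed, median −1.90), among them Ikzf2 (−2.01 ± 0.17), Capg (−1.77 ± 0.20), the integrin Itgae (−2.83 ± 0.33) and Il2ra (−2.53 ± 0.29). The type 1 master factor went the other way: Tbx21 was at 40.3 to 98.8 CPM in memory-type cells and at 0 to 13.9 CPM in Foxp3 cells (4.28 ± 0.45; edgeR adjusted p = 5.23e-06), and Ifng had 3.87 ± 0.48. In this comparison a gene could pass the low-count filter through either set alone, as Tbx21 did through the memory-type cells. The direction of genes scarce in 1 of the sets is therefore a description only. Of 12 type 1 genes tested 6 were higher, and the 2 lower were Klrg1, an inhibitory lectin receptor of late effector cells (−3.26 ± 0.34), and Hopx (−1.34 ± 0.19).

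The naive-state list split against Foxp3 cells: of 19 genes tested 5 were higher and 3 lower in memory-type cells (median 0.27). Of all genes tested 3.21% were higher and 3.96% lower. Among the higher naive-state genes were Tcf7, the factor of naive and long-lived memory T cells (1.23 ± 0.13), and Il7r, the receptor for the survival cytokine interleukin-7 (0.76 ± 0.11). Igfbp4 (1.33 ± 0.27) and Nsg2 (1.43 ± 0.26) were also higher. The Notch co-activator gene Maml2 (1.32 ± 0.13), Mctp2 (3.01 ± 0.25), Arhgap26 (1.53 ± 0.16), Tnfsf8, the CD30 ligand (1.76 ± 0.18), Rnf19a (1.02 ± 0.11), Pde7a (1.19 ± 0.15) and Farp1 (1.87 ± 0.24) were higher. Of 20 memory and tissue-homing genes tested against Foxp3 cells, 9 were lower and 2 higher (median −0.61). S100a6 was lower by −1.46 ± 0.13, S100a10 by −1.12 ± 0.10, Lgals1, a galectin gene, by −1.34 ± 0.13 and Crip1 by −0.93 ± 0.11. With every cell thinned to 2000 UMIs and gated again, S100a6, Lgals1 and Crip1 had 0.71, 0.16 and 0.13, so their direction depended on that step. With at least 4 of the 7 genes required, Igfbp4 had −0.58.

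Other genes lower than in Foxp3 cells were Phlpp1, a phosphatase that restrains AKT (−1.84 ± 0.14), Ifi27l2a (−1.27 ± 0.09), Ankrd55 (−2.56 ± 0.21), the laminin gene Lamc1 (−2.35 ± 0.21), the integrin Itgav (−1.58 ± 0.15) and Swap70 (−2.38 ± 0.25). Tumour necrosis factor receptors of regulatory cells followed: Tnfrsf9 (4-1BB) had −2.04 ± 0.29 and Tnfrsf18 (GITR) −1.17 ± 0.19, while Cd28 (0.53 ± 0.10) and Cd40lg, the ligand by which helper cells license B cells (1.66 ± 0.34), were higher. Immediate-early genes were higher in 7 of 15 tested and lower in 0 (median 0.51), with Egr1 at 1.04 ± 0.17, Fosb at 0.69 ± 0.12, Fos at 0.51 ± 0.11 and Nr4a2 at 0.74 ± 0.16. Izumo1r, which encodes folate receptor 4, was lower (−1.0025 ± 0.16), as were Sh2d1a (−0.72 ± 0.15), the skin-homing receptor Ccr4 (−1.62 ± 0.33) and Il1rl1 (−1.69 ± 0.38).

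The memory-type cells varied among themselves. Set against members with no Cxcr3 UMI, Cxcr3-positive members had 28 genes higher and 48 lower of 5729 tested, 1.33% in all, 0.489% higher and 0.838% lower (edgeR, library as block, n = 5 pairs). Of 21 memory genes tested 8 were higher and 0 lower, and of 17 naive genes 8 were lower and 0 higher. Cxcr3 is one of the 7 genes, and Cxcr3-positive members also carried more of the other 6, a mean of 4.55 against 3.96 in members without it. Naive and memory levels followed the number of the 7 genes, so the split is not independent of the rule. With at least 3 of the other 6 genes required on both sides (127 and 750 cells), 45 genes were higher and 59 lower, among them 10 memory genes higher and 8 naive genes lower. This step left out only Cxcr3-positive members, those with 2 of the other 6, and so raised their mean further. It therefore cannot separate the split from the rule. With at least 4 of the 7 genes required, 2 genes were higher and 0 lower and no naive gene passed, and with 2 required 240 and 284. S100a6 (1.37 ± 0.13), S100a11 (1.10 ± 0.14), Lgals1 (1.07 ± 0.15), vimentin (Vim, 0.74 ± 0.14) and Cd44 (0.75 ± 0.14) were higher. Lef1 (−1.40 ± 0.15), Bach2 (−0.99 ± 0.13) and Foxp1 (−0.67 ± 0.11) were lower, and so was the interferon gamma receptor chain Ifngr2, whose sums were at 0 CPM in Cxcr3-positive members of both HFD + L-NAME libraries. Of 13 type 1 genes tested, 0 passed in either direction; Ccl5 had 0.43 and Nkg7 0.67. Cxcr3-positive members were 139 cells. Without platelet-positive barcodes 1 gene was higher and 8 lower, and without the library as a block 3 and 9. Without the NO2-OA library 9 genes were higher and 15 lower; with chow 1 left out 14 and 28, with HFD + L-NAME 1 left out 17 and 29, and with every cell thinned to 2000 UMIs 0 and 3.

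Tbc1d4-positive members (672 cells) had 27 genes higher and 27 lower than those without a Tbc1d4 UMI, of 5714 tested, 0.945% in all and 0.473% in each direction. Tbc1d4 is one of the 7 genes, so a member without it had to carry 3 of the other 6 and a member with it only 2. The means were 3.35 of the other 6 genes in positive members and 3.8 in the 217 without Tbc1d4, and the split is not independent of the rule. Higher were Trps1 (0.92 ± 0.13), the kinase gene Prkca (0.59 ± 0.09), Gpm6b (2.24 ± 0.36), Tnfsf8 (1.28 ± 0.21), the alpha-4 integrin Itga4 (0.60 ± 0.12), Tcf7 (0.53 ± 0.11) and Ccr7 (0.86 ± 0.19). Lower were the inflammatory chemokine receptor Ccr2 (−1.93 ± 0.31), Crip1 (−0.66 ± 0.09), S100a10 (−0.53 ± 0.11), Lamc1 (−1.90 ± 0.30), the G-protein regulators Rgs1 (−0.81 ± 0.13) and Rgs2 (−0.74 ± 0.12), Nkg7 (−0.91 ± 0.20) and Capg (−1.14 ± 0.26). Of 20 memory genes tested 6 were lower and 1 higher, and of 17 naive genes 2 were higher and 0 lower. With at least 3 of the other 6 genes required on both sides (451 and 217 cells), 43 genes were higher and 30 lower, but memory genes then had 3 lower and 2 higher of 19 tested and naive genes 2 lower and 1 higher of 16. This fit left out only Tbc1d4-positive members, those with 2 of the other 6, and so raised their mean. It did not match the sets and cannot separate the split from the rule. Trps1 (1.14), Prkca (0.77), Gpm6b (2.63) and Ccr2 (−1.59) passed in that fit, while Ccr7 (0.48), S100a10 (−0.22), Nkg7 (−0.66) and Capg (−0.85) did not. The counts were 1 higher and 2 lower without platelet-positive barcodes, 3 and 2 after thinning to 2000 UMIs, 0 and 2 without the library as a block, and 88 and 39 with at least 2 of the 7 genes required. None of the 27 genes named for this split by rule or list stayed past the threshold under every alternative in which it was tested. The counts were also lower with 1 of 3 libraries left out: 13 and 12 without chow 1, 11 and 11 without chow 2, and 13 and 11 without HFD + L-NAME 1. With at least 2 of the 7 genes required, Ccr7 and S100a10 had −0.00499 and 0.0167.

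Pooled levels among the members, given with no test, set the helper genes apart further. The 187 members with a Tbx21 UMI had 1709 CPM of Ccl5 and 145 CPM of Ifng, against 264 and 31.1 CPM in the 702 without, and 44.2 against 23.3 CPM of Cxcr3. All 3 were higher with Tbx21 in 5 of 5 libraries, and Ccr7 was lower in all 5 (57.5 against 118 CPM pooled). The 335 members with an Ikzf2 UMI had 125 CPM of Nrp1, 86.7 of Tox2 and 93.3 of Izumo1r, against 49.3, 24.3 and 56.6 CPM in the 554 without, in 5 of 5 libraries each. Their Ifng and Ccl5 levels were 52.5 and 541 CPM, against 59.9 and 624 CPM without Ikzf2. The 169 members with a Cxcr5 UMI had more Tox2 (101 against 36.2 CPM), Izumo1r (91.6 against 66.0) and Tbc1d4 (764 against 436) and less Ccl5 (331 against 654) and Nkg7 (48.0 against 107) than the 720 without, again in every library. Tox2 and Izumo1r are both known from follicular helper cells, and Izumo1r also from regulatory T cells.

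The smallest set was the 32 members with an Il1rl1 UMI. They had 1312 CPM of Ikzf2, 255 of Gata3, 101 of Capg and 342 of Areg, against 254, 120, 28.5 and 9.55 CPM in the other 857 members. The Areg level rested on 1 library: it was 35.4 CPM in NO2-OA, 543 and 0 in HFD + L-NAME and 57.3 and 1715 in chow, and 106 CPM pooled without chow 2. Ikzf2, Gata3 and Capg were higher in 5 of 5 libraries and Areg in 4. Ifng and Ccr7 were higher with Il1rl1 in 0 of 5 libraries, at 13.96 against 58.8 CPM and 10.5 against 108 CPM pooled. By library, Ikzf2 in these 32 cells was at 1823 CPM in NO2-OA, 1771 and 565 in HFD + L-NAME and 1165 and 524 in chow, where Foxp3 cells ranged from 922 to 1693 CPM. Of the 5 values, 2 lay above and 2 below that range.

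Setting HFD + L-NAME against chow within memory-type cells asks what the regimen changed in this population. Of 9400 genes tested over 5 libraries, 0 were higher and 1 was lower, 0.0106% (edgeR; unadjusted p under 0.05 for 301 genes, and DESeq2 called 0). The 1 gene was Gzma, the protease granzyme A of killer lymphocytes. It was at 5.17 CPM in NO2-OA, 2.21 and 0 CPM in HFD + L-NAME and 35.8 and 42.1 CPM in chow (log2 fold change −4.58 ± 0.74; edgeR adjusted p = 0.0409; −3.28 and −4.96 within the 2 sets of libraries). The HFD + L-NAME libraries held 2 UMIs and the chow libraries 99, a ratio of 0.0393 (exact 95% counting interval 0.00469 to 0.146). Those UMIs lay in few cells: 2 of 174 HFD + L-NAME cells and 4 of 327 chow cells had any, and 1 cell held all 47 UMIs of chow 2. In B-gated cells, which should lack the gene, 0.404% had a UMI. The level in chow thus rested on 4 cells, and the other CD4-gated cells had a like pattern, with 0 UMIs in HFD + L-NAME and 136 UMIs in 6 chow cells.

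The call of Gzma depended on the settings. Its adjusted p was 0.0511 with DESeq2 size factors in edgeR, 0.767 in DESeq2, 0.221 without NO2-OA and 1.00 without predicted doublets, with log2 values from −8.88 to −4.03 over the alternatives in which the gene was tested. It did not pass the low-count filter without platelet-positive barcodes or after thinning. Counts of genes called moved with every library left out: 56 were higher and 13 lower without chow 1, 35 and 19 without chow 2, 10 and 5 without HFD + L-NAME 1, 10 and 3 without HFD + L-NAME 2, and 0 and 0 without NO2-OA. The 8 NK markers, all detected, summed to 42.0 CPM in NO2-OA, 32.0 and 69.9 in HFD + L-NAME and 98.5 and 84.1 in chow, and their part in the Gzma difference was not tested.

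Other genes with the smallest p did not pass and are given as values. Il10 was at 25.8 CPM in NO2-OA, 19.9 and 21.7 in HFD + L-NAME and 2.75 and 5.37 in chow (log2 fold change 2.40 ± 0.60; edgeR adjusted p = 0.999; 2.42 and 1.76 within sets). A UMI of Il10 was found in 12.6% of NO2-OA, 11.5% of HFD + L-NAME and 3.06% of chow members, while 1.16% of B-gated cells had one. Batf, an AP-1 factor of effector T cells, stood at 161 CPM in NO2-OA, 174 and 98.8 in HFD + L-NAME and 71.6 and 55.5 in chow (1.18 ± 0.32; 1.36 and 0.80 within sets). The other CD4-gated cells had Batf at 175 CPM in NO2-OA, 142 and 79.5 in HFD + L-NAME and 52.9 and 33.0 in chow. Both sets of cells thus put the HFD + L-NAME values above chow. Map3k8, a kinase downstream of toll-like and tumour necrosis factor receptors, was at 87.8 CPM in NO2-OA, 107 and 43.4 in HFD + L-NAME and 26.9 and 24.2 in chow (1.67 ± 0.39). Gimap7, a lymphocyte GTPase gene (1.46 ± 0.34), the scramblase gene Plscr1 (2.08 ± 0.49) and Socs1, a brake on cytokine signalling (1.40 ± 0.36), had like values. Lower, without passing, were Tgfbr3, a co-receptor for transforming growth factor beta (−1.23 ± 0.34), Pak1 (−2.61 ± 0.74), Kcnc2 (−2.18 ± 0.63), Pard3 (−1.99 ± 0.57) and Acyp2 (−1.45 ± 0.45). Groups that do not overlap were common: 14.1% of all genes tested had both HFD + L-NAME values above both chow values, and 16.5% had both below.

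No gene list held a called gene other than Gzma. Type 1 genes had 14 of 16 tested above 0 (median 0.54), interferon-stimulated genes 22 of 24 (0.43), activation genes 14 of 18 (0.38) and memory genes 20 of 24 (0.24). Naive genes had 7 of 20 above 0 (−0.26) and cell-cycle genes 1 of 7 (−0.35), beside a median of −0.01 over all genes tested. None of these lists can be called changed from such counts. Haemoglobin UMIs were at least 1% of the total in 0 and 1 HFD + L-NAME members, in 12 NO2-OA members and in 0 chow members. The 10 platelet markers, all detected, summed to 34.9 CPM in NO2-OA, 465 and 183 in HFD + L-NAME and 649 and 337 in chow.

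**Figure D5:**
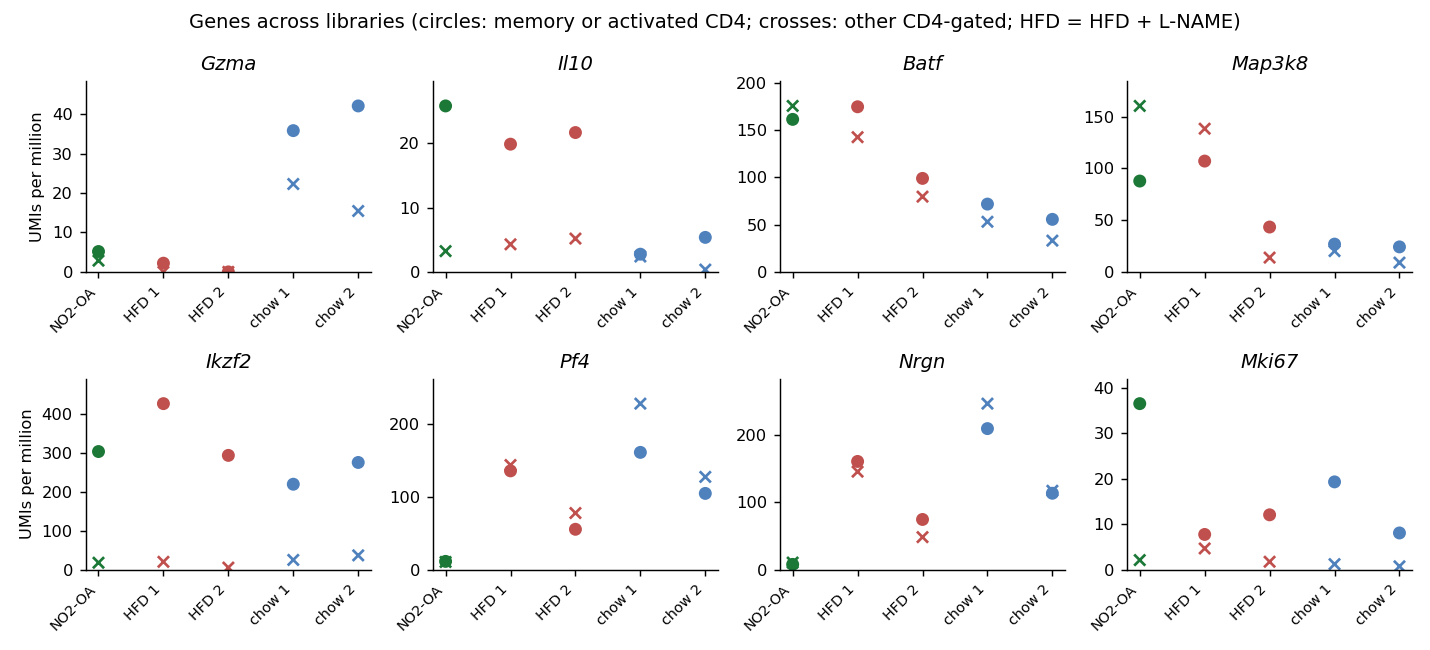
Levels of 8 genes (CPM, each axis from 0) by library in memory-type cells (circles) and other CD4-gated cells (crosses). Gzma is at or below 5.17 CPM outside chow, Il10 at or above 19.9 CPM outside chow in memory-type cells, and Pf4 and Nrgn are lowest in the NO2-OA library in both sets of cells.

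Whether the regimen difference of a gene was particular to memory-type cells was tested as the interaction of cell set and group. Of 11,995 genes 1 passed, 0.00834% (edgeR; DESeq2 called 0). It was Ikzf2, whose call depended on the settings, with log2 regimen effects that differed by 1.54 ± 0.28 (edgeR adjusted p = 0.000703). In memory-type cells it was at 427 and 294 CPM in HFD + L-NAME and 220 and 276 CPM in chow, and in other CD4-gated cells at 20.02 and 5.18 CPM in HFD + L-NAME and 24.9 and 36.6 CPM in chow. A UMI was found in 45.4% of HFD + L-NAME and 32.4% of chow members, and in 2.91% and 4.81% of the other CD4-gated cells of those groups. The other CD4-gated cells of HFD + L-NAME 2 contributed 3 UMIs. The number of genes called was 7 without chow 1, 5 without HFD + L-NAME 1 and 0 without any other library. For Ikzf2, the edgeR adjusted p was 0.60 without chow 2, 0.20 without HFD + L-NAME 1, 1.00 without HFD + L-NAME 2, 0.375 without NO2-OA, 0.0724 without predicted doublets and 1.00 without platelet-positive barcodes, and in DESeq2 it was 1.00. With at least 4 of the 7 genes required the difference was 0.09 (edgeR adjusted p = 1.00), and after thinning it was 0.08. Within memory-type cells alone Ikzf2 did not pass (0.59 ± 0.29; edgeR adjusted p = 0.999).

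The comparison of NO2-OA with HFD + L-NAME rests on 1 NO2-OA library, which was assumed to vary like the others. Of 9400 genes, 0 were higher and 3 lower, 0.0319% (edgeR; unadjusted p under 0.05 for 171 genes, and DESeq2 called 0 higher and 3 lower). All 3 are platelet genes. Pf4, the chemokine platelet factor 4, was at 11.3 CPM in NO2-OA, 136 and 55.4 in HFD + L-NAME and 161 and 105 in chow (log2 fold change −3.18 ± 0.52; edgeR adjusted p = 0.0358). Nrgn, a calmodulin-binding protein gene abundant in platelets, was at 7.75 CPM in NO2-OA, 161 and 74.7 in HFD + L-NAME and 210 and 114 in chow (−4.01 ± 0.56; adjusted p = 0.0222). Gng11, a G-protein gamma subunit gene, was at 8.07 CPM in NO2-OA, 202 and 72.3 in HFD + L-NAME and 178 and 138 in chow (−4.17 ± 0.59; adjusted p = 0.0222).

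A Pf4 or Ppbp UMI was carried by 7.22% of NO2-OA members, 54.6% and 31.8% of HFD + L-NAME members and 76.3% and 49.7% of chow members. Among the other CD4-gated cells it was carried by 6.99% in NO2-OA, 52.8% and 38.6% in HFD + L-NAME and 73.1% and 52.4% in chow. B-gated cells had Pf4 at 12.2 CPM in NO2-OA, 153 and 80.2 in HFD + L-NAME and 208 and 149 in chow, so the library stood lower in cells of another lineage as well. With barcodes carrying Pf4 or Ppbp left out, 0 genes were lower and 1 was higher. Nrgn and Gng11 did not pass there but kept like log2 fold changes, −3.61 and −4.35, against −4.01 and −4.17 with all barcodes. Pf4 was absent by construction. Leaving out HFD + L-NAME 1 gave 1 higher and 5 lower genes, HFD + L-NAME 2 gave 6 and 13, chow 1 gave 3 and 17 and chow 2 gave 3 and 18.

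No T-cell gene passed between NO2-OA and HFD + L-NAME. Tox2, a factor of follicular helper cells, was at 77.8 CPM in NO2-OA, 17.7 and 26.5 in HFD + L-NAME and 32.4 and 23.3 in chow (1.84 ± 0.44; edgeR adjusted p = 0.549). Its UMIs were found in 21.1% of NO2-OA members, 8.05% of HFD + L-NAME members and 11.9% of chow members. Mki67 was at 36.5 CPM in NO2-OA, 7.72 and 12.0 in HFD + L-NAME and 19.3 and 8.05 in chow (1.92 ± 0.60), and 7 of 7 cell-cycle genes tested had values above 0 (median 1.09). Predicted doublets were also most frequent in that library (13.7%), and their part in these values was not tested. H1f5, a linker histone gene, had 228 UMIs in 12 NO2-OA cells, 108 of them in 1 cell, against 3 UMIs in HFD + L-NAME cells. Immediate-early genes had 0 of 15 above 0 (median −0.57, none called), with Fos at 438 CPM in NO2-OA, 1186 and 918 in HFD + L-NAME and 592 and 746 in chow.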

How the data were processed

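The authors deposited 1 matrix of UMI counts per library, made with Cell Ranger 7.1.0 per the file headers; the submitters' processing notes also name bcl2fastq and the mouse build mm39. Depth was 71,216,133 to 122,022,000 UMIs per library, over 8488 to 17,997 barcodes. The cells and the gene lists were chosen with earlier results of these data known. Here cells were gated on raw counts as described above, and B-gated cells served as a rough measure of free RNA. They cannot serve so for genes that B cells express or that few B-gated cells hold. In chow 1, for instance, 249 Gzma UMIs lay in 14 of 4150 B-gated cells. Doublets were not removed. They were marked with scrublet (in scanpy 1.11.5) at 0.8% per 1000 barcodes and left out as an alternative.

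Raw counts were summed per library and cell set and tested with edgeR 4.0.16 (R 4.3.3; filterByExpr, TMM, quasi-likelihood test, Benjamini-Hochberg adjustment, threshold 0.05). Group comparisons used all 5 libraries, and comparisons of cell sets had the library as a block. Levels are CPM, UMIs per 1,000,000 UMIs of the summed set, SE is the log2 fold change over the root of F, and fold changes of genes at 0 in a group depend on edgeR's prior count. DESeq2 1.42.0, its size factors, no low-count filter, each library left out, mitochondrial share under 5%, doublets or platelet-positive barcodes left out, 2 or 4 of the 7 genes and thinning to 2000 UMIs were tried; leaving out barcodes with at least 1% haemoglobin, and holding both sides of a split to 3 of the other 6 genes, were chosen after seeing the data. Shares were compared by exact permutation. Binomial (Clopper-Pearson) intervals, counting intervals and floors (3 counts) cover counting error only. Named genes are up to 10 higher and 10 lower per comparison with the smallest p past the threshold, a mean of at least 4 log2 CPM and no overlap or 1 direction in all libraries, passing over genes of the gate and models without a symbol. Where fewer than 5 passed, up to 6 are given as values. Up to 4 members of each list and subset-defining genes (Tbx21, Gata3, Bcl6, Cxcr5, Ikzf2, Il2ra, Zbtb16, Trdc) were added, and other genes were chosen after their values were seen. Some items are not reported here. The fit was tested on simulated counts.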

Additional observations from a re-analysis of the deposited data

Results flagged for a closer look

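The regimen effect on Ikzf2, which encodes Helios, passed the test of a difference between memory-type cells and other CD4-gated cells, a call that did not hold under most alternatives. The log2 difference of HFD + L-NAME against chow was 1.54 higher in memory-type cells (SE 0.28; edgeR interaction test, adjusted p = 0.000703 over 11,995 genes). Memory-type cells were higher than the other CD4-gated cells in 5 of 5 libraries. The other CD4-gated cells of HFD + L-NAME held 59 UMIs of the gene in 15 cells, 3 of these UMIs in the second library, and those of chow 206 UMIs in 55 cells. The call was lost in DESeq2 (adjusted p = 1.00), without predicted doublets (0.0724), without platelet-positive barcodes (1.00) and without chow 2, HFD + L-NAME 1, HFD + L-NAME 2 or NO2-OA. The difference was 0.09 with at least 4 of the 7 genes required and 0.08 after thinning.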

How the results depend on the processing

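Of the genes named as past the threshold against the other CD4-gated cells, 63 of 71 stayed past it under every alternative in which they were tested. Against Foxp3 cells 20 of 41 did, in the Cxcr3 comparison 2 of 24, in the Tbc1d4 comparison 0 of 27, and among the regimen, NO2-OA and interaction calls 0 of 1, 0 of 3 and 0 of 1. A gene that the low-count filter removed under an alternative was not counted as lost there. Thinning, for instance, tested 2895 genes against other CD4-gated cells, where the main fit tested 9693. The cause of each change below was not tested, except that settings with fewer libraries, cells or UMIs had less to test. Leaving out 1 library at a time gave differences in the share of CD4-gated cells of −0.474 to 15.5 points (−0.474 without the second HFD + L-NAME library) and in the share of all barcodes of −0.626 to −0.108 points, where thinning to 2000 UMIs gave 0.00742 points.
Leaving out 1 library gave 0 to 69 called genes for the regimen, 6 to 21 for NO2-OA, 1823 to 2879 against other CD4-gated cells, 232 to 400 against Foxp3 cells, 24 to 87 for Cxcr3, 22 to 64 for Tbc1d4 and 0 to 7 for the interaction.

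For the regimen (1 gene) edgeR with DESeq2 size factors, DESeq2, a mitochondrial share under 5%, doublets left out, 4 genes required and thinning each called 0 genes, no low-count filter 9, and haemoglobin-rich barcodes left out 2. For NO2-OA (3 genes) no filter called 11, 2 genes required 1, platelet-positive barcodes left out 1 and thinning 0. Against other CD4-gated cells (2808) platelet-positive barcodes left out called 1785 and thinning 731. Against Foxp3 cells (420) 2 genes required called 735, platelet-positive barcodes left out 204 and thinning 11. For Cxcr3 (76) no filter called 179, 2 genes required 524, 4 genes required 2, platelet-positive barcodes left out 9 and thinning 3. For Tbc1d4 (54) no filter called 117, 2 genes required 127, 4 genes required 101, platelet-positive barcodes left out 3 and thinning 5. For the interaction (1) a mitochondrial share under 5% called 2, and DESeq2, doublets left out, 4 genes required, platelet-positive barcodes left out and thinning each 0.

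The replicate number as a block gave 2 called genes for the regimen and 13 for NO2-OA. The labels give the numbers no meaning, and the differences of replicate 1 minus 2 in chow and in HFD + L-NAME had r = 0.0676 over 9411 genes. Without the library as a block, 1246 genes were called against other CD4-gated cells, 170 against Foxp3 cells, 12 for Cxcr3 and 2 for Tbc1d4. Signs turned for S100a6 (0.71), Lgals1 (0.16) and Crip1 (0.13) against Foxp3 cells after thinning, for Igfbp4 there with 4 genes required (−0.58), for Ccr7 (−0.00499) and S100a10 (0.0167) in the Tbc1d4 comparison with 2 genes required, and for Bcl6 against other CD4-gated cells without platelet-positive barcodes (0.00314).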

Other observations

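Lists of stress, lipid and inflammatory signalling genes were read in memory-type cells against the other CD4-gated cells, where 14.6% of all genes tested were higher and 14.3% lower. Of 12 NF-kappaB target genes tested 7 were higher and 0 lower (median log2 fold change 0.31), with the survival gene Bcl2a1b at 2.63 ± 0.15, Nfkb1 at 0.66 ± 0.08, the ubiquitin-editing enzyme Tnfaip3 at 0.50 ± 0.07 and the adaptor Traf1 at 0.86 ± 0.14 (SE; edgeR). NRF2 targets, the antioxidant genes that electrophilic fatty acids are known to induce, had 2 of 7 tested higher and 0 lower, a share called that is near the 29.0% of all genes: Txnrd1, a thioredoxin reductase (0.53 ± 0.14), and Prdx1, a peroxiredoxin (0.29 ± 0.09). Lipid genes split into 5 higher and 4 lower of 13 tested. Insig1, which holds back sterol synthesis, had 0.72 ± 0.13 and Fabp5, a fatty acid carrier, 1.66 ± 0.35, while the cholesterol exporters Abca1 and Abcg1 had −1.34 ± 0.24 and −0.45 ± 0.10.

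Genes of innate-like lymphocytes were carried by few memory-type cells. Zbtb16, which encodes PLZF, the factor of NKT cells, had a UMI in 1.91% of memory-type and 0.358% of other CD4-gated cells (3.04 ± 0.35), beside 0.289% of B-gated cells. Of 8 listed NKT markers 5 were tested, with 2 higher, 0 lower and a median log2 fold change of 0.11: Zbtb16 and Klrk1 (NKG2D, 2.73 ± 0.31) passed, and Klrd1 and Fcer1g had −0.24 and −0.07. Of 8 listed NK markers 3 were tested, with 2 higher, Klre1 (1.81 ± 0.49) and Gzma (0.98 ± 0.27), and 0 lower. Of all genes tested 14.6% were higher and 14.3% lower. Genes scarce in the other CD4-gated cells, such as Zbtb16, could pass the low-count filter through the memory-type cells alone. The direction of such genes is a description only, and the counts of both lists can include them. The Gzma value rested on 10 memory-type cells with 117 UMIs, 47 of them in 1 cell, and on 11 other CD4-gated cells with 151. Trdc, the constant chain of gamma delta T cells, was detected in 2.03% of memory-type and 2.35% of other CD4-gated cells, beside 0.144% of B-gated cells.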
